A study of Homo sapiens with 5 samples.

Results

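NF-κB is a family of dimeric transcription factors that carries signals from Toll-like, cytokine and antigen receptors to inflammatory and survival genes. The genes followed here are 39 members of that pathway and its targets in Nalm6, an established cell line grown from a human acute lymphoblastic leukaemia of B-cell precursors. Members were taken by symbol from Affymetrix probe sets annotated with exactly 1 gene, and the brightest probe set by its 5-array mean stood for its gene. Of the 39, 35 were measured among 18417 genes. TAB1 was left out because its probe set also carries another symbol, and no probe set used here names IRAK4, TRAF2 or BIRC3, which were not analysed.

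Of the 5 stable clones, 3 expressed a short hairpin RNA (shRNA) against MondoA and 2 a nonsense shRNA, with 1 array per clone. MondoA, encoded by MLXIP, is a glucose-responsive transcription factor. All 5 clones shared medium with 20% heat-inactivated serum, glutamine, gentamycin and 200 mg/dl glucose, and the labels name no stimulus of NF-κB. As each array is a single clone, a group difference is read against the spread between clones. Every value below is an RMA expression level on the log2 scale, where 1 unit is a doubling, and every difference is MondoA shRNA minus control shRNA.

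MLXIP RNA itself did not show the knockdown, with levels of 6.42, 6.47 and 6.29 in the clones labelled MondoA shRNA and 6.42 in both control clones. The MLXIP difference of -0.03 had a 95% interval from -0.21 to 0.16 (adjusted p = 0.959, limma). Exactly the same MLXIP value stood in 3 of the arrays. TXNIP and ARRDC4, listed beside MLXIP as a check of the targeted gene, differed by -0.10 and -0.08, and both overlapped between groups. The clones are therefore called MondoA-labelled below, and each direction refers to the label. Of 13 listed B-precursor markers 11 were measured, and all 11 lay above the median gene level of 4.15. The groups did not overlap for 6 of these 11, with MondoA-labelled arrays higher for 3 and lower for 3. Each side is 27.3% of these markers, where 4.85% of all genes were wholly higher and 5.18% wholly lower. The mean level was above 5 for 10 of the 11. Of 7450 genes above that level, 577 were wholly higher and 690 wholly lower. The differences of 1.27 for CD22, 0.91 for CD79A and -1.19 for DNTT were larger in size than that of any NF-κB member, and their part in the results was not tested. Of 7 measured T and natural killer cell markers 1 (NKG7) lay above that level, as did 0 of 7 myeloid, 0 of 3 erythroid and 1 of 5 fibroblast markers (COL1A1). Detection calls were not used, so whether a dim gene was expressed was not assessed.

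In resting cells the NF-κB dimers are held by inhibitors of the IκB family. A signal passes through adaptors and kinases to the IκB kinase complex, which marks the inhibitor for destruction and frees the dimer. The freed dimer then switches on targets that include its own inhibitors, among them NFKBIA and TNFAIP3, so that the response limits itself. In B lymphocytes the pathway is known for its part in survival and maturation, and a second, slower branch runs through MAP3K14 and NFKB2.

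No member separated the groups by the fitted test. The limma fit over all genes called 0 of 35 members at an adjusted p under 0.05, where 0% of all genes were called, and the lowest adjusted p of a member was 0.833. At an unadjusted p under 0.05 there were likewise 0 members, where 3.73% of all genes lay under that threshold. The largest differences belonged to the inhibitor NFKBIA at 0.49, the adaptor MYD88 at 0.33 and the surface protein gene CD83 at 0.32 on the positive side. On the negative side stood the deubiquitinases TNFAIP3 at -0.36 and CYLD at -0.26. With 3 arrays against 2, intervals were wide, and these values do not show that the groups were alike. In such bulk RNA values, fewer expressing cells and less RNA per cell cannot be told apart.

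**Figure D1:**
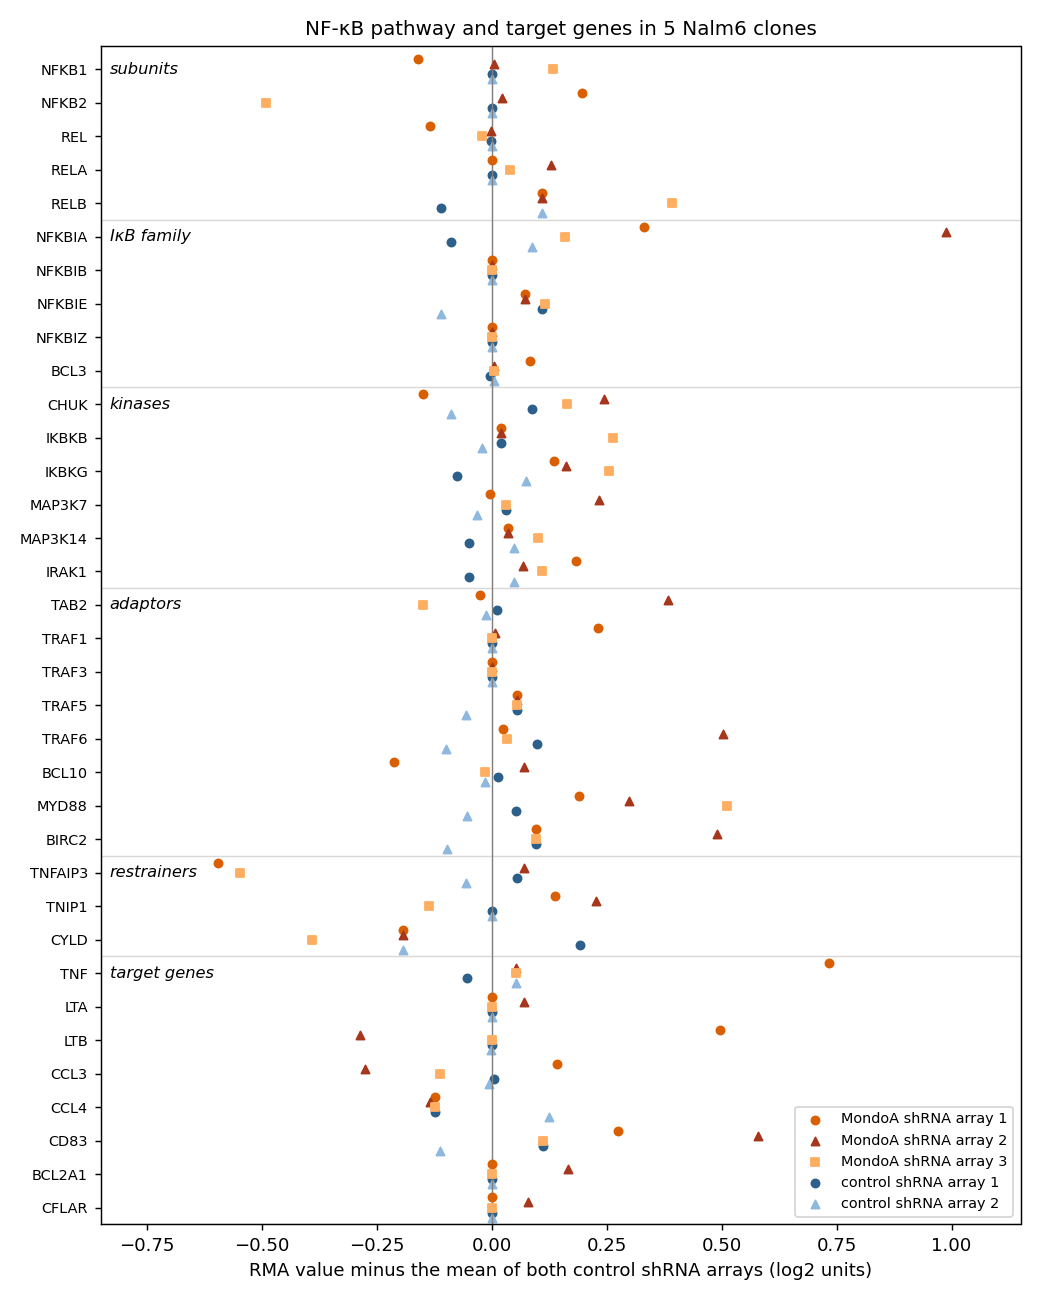
Each row is 1 of the 35 measured genes and each point 1 array, as the RMA value minus the mean of both control shRNA arrays (log2 units), with the arrays set slightly apart in height so that equal values can be seen. NFKBIA in MondoA shRNA array 2 and TNF in MondoA shRNA array 1 lie farthest to the right, while NFKBIB, NFKBIZ and TRAF3 have the same value in all 5 arrays.

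NFKBIA encodes IκBα, an inhibitor that NF-κB itself induces. It read 7.49, 8.15 and 7.32 in the MondoA-labelled arrays, against 7.07 and 7.25 in the control arrays. The groups did not overlap, but the MondoA-labelled arrays spanned 0.83 among themselves, more than the group difference of 0.49 ± 0.31 (SE). That difference corresponds to 1.41-fold, with a 95% interval from 0.76-fold to 2.61-fold (adjusted p = 0.833, limma). Array 2 carried much of it, as the difference was 0.25 without that array.

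TNFAIP3 encodes A20, which removes and edits the ubiquitin chains that carry the signal, and is also induced by NF-κB. It read 6.59, 7.25 and 6.64 in the MondoA-labelled arrays, against 7.24 and 7.13 in the control arrays. MondoA-labelled arrays 1 and 3 lay below both controls and array 2 above them, so the groups overlapped. Its difference of -0.36 ± 0.26 (SE) had a 95% interval from -1.11 to 0.39 (adjusted p = 0.833, limma), and it was -0.57 without MondoA-labelled array 2. Both feedback genes thus had their highest reading in the same array, while their group differences had opposite signs.

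The promoters of these feedback genes are shown because their group differences were the largest of the feedback genes in each direction, with NFKB1, whose difference was near 0, beside them. Each run covers the 250 bases before the RefSeq start on GRCh38.p14, read 5′ to 3′ along the gene. Capitals mark matches to GGGNNNTTCC, a form of the κB motif, or to its reverse complement GGAANNNCCC. The spans are chr14:35404750-35404999 on the minus strand for NFKBIA, chr6:137867009-137867258 on the plus strand for TNFAIP3 and chr4:102501109-102501358 on the plus strand for NFKB1.
NFKBIA: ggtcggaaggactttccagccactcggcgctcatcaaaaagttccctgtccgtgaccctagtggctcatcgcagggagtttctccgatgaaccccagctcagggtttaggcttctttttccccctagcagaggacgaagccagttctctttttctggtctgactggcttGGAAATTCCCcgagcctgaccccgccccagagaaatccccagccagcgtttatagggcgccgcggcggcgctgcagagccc
TNFAIP3: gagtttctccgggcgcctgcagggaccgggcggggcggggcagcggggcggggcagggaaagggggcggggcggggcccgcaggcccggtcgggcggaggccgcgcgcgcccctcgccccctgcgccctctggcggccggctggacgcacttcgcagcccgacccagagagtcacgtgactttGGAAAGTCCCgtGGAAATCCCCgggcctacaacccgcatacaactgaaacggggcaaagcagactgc
NFKB1: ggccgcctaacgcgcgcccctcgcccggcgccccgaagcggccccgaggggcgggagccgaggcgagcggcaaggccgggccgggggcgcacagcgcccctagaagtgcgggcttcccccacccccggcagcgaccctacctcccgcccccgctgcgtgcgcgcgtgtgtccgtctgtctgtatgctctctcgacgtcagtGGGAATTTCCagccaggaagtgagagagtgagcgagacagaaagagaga

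NFKBIA held 1 match, starting 81 bases before the start, TNFAIP3 held 2, starting 67 and 55 bases before it, and NFKB1 held 1 at 49 bases. Of the 35 measured members, 31 had a promoter in the RefSeq table, and 9 of these held a match on either strand (29.0%). Matches were present in 5 of 13 promoters of feedback and target genes and 4 of 18 promoters of the signalling machinery. The share was 6.17% over the 14239 matched promoters of measured genes. Members were chosen partly as known NF-κB targets, so the share is a description and a match is not a bound site. REL, the only other gene with more than 1 match, held 2 that overlap each other. As NFKBIA, TNFAIP3 and NFKB1 were picked by their differences, their directions say nothing about the motif. The promoters of MYD88, CD83, TNF and BIRC2, with differences from 0.33 to 0.23, and of CYLD, at -0.26, held no match.

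Among the 5 subunits, the DNA-binding proteins that pair to form the factor, 2 differences were positive and 3 negative, all between -0.09 and 0.20. RELA, the main activating subunit, read 7.00, 7.13 and 7.04 in MondoA-labelled arrays and 7.00 in both control arrays. NFKB1, the precursor of its partner p50, read 7.24, 7.41 and 7.54 in MondoA-labelled arrays and 7.40 in both controls. The controls thus lay inside the MondoA-labelled range for NFKB1 and at its lower edge for RELA. REL, which works mainly in lymphocytes, read 5.48, 5.61 and 5.59 in MondoA-labelled arrays, against 5.61 and 5.62 in controls.

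The subunits of the slower branch varied more. NFKB2, the precursor of p52, read 6.23, 6.06 and 5.54 in MondoA-labelled arrays and 6.03 in both controls. Its difference was -0.09 ± 0.24 (SE; adjusted p = 0.965, limma) and turned to 0.11 without MondoA-labelled array 3. RELB, the partner of p52, read 5.03, 5.03 and 5.31 in MondoA-labelled arrays, against 4.81 and 5.03 in controls. Its difference of 0.20 was 0.09 without control array 1. Array 3 was thus the lowest for NFKB2 and the highest for RELB.

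The remaining IκB relatives varied less than NFKBIA. NFKBIB, a second cytoplasmic inhibitor, read 6.91 in all 5 arrays, and NFKBIZ, a nuclear relative that is quickly induced by Toll-like receptors, read 2.69 in all 5, below the median gene level. Such exact ties are a feature of the deposited values and carry no spread to test. At least 3 arrays shared 1 value in 16 of 35 members (45.7%), where 54% of all genes did. NFKBIE, the inhibitor IκBε, read 4.45, 4.45 and 4.50 in MondoA-labelled arrays, against 4.49 and 4.27 in controls. BCL3, a nuclear coactivator of the family, read 4.99, 4.91 and 4.91 in MondoA-labelled arrays, against 4.90 and 4.91 in controls.

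All 6 measured kinase genes had a positive difference, between 0.06 and 0.18, and none passed the test. That of CHUK was -0.0013 without control array 2. IKBKG, the regulatory subunit of the IκB kinase complex, read 4.10, 4.12 and 4.22 in MondoA-labelled arrays, against 3.89 and 4.04 in controls. IRAK1, a kinase that acts downstream of MYD88 in Toll-like and interleukin-1 receptor signalling, read 6.95, 6.84 and 6.88 in MondoA-labelled arrays. It read 6.72 and 6.81 in controls. Neither gene overlapped between groups. The differences were 0.18 ± 0.07 for IKBKG and 0.12 ± 0.05 for IRAK1 (SE; adjusted p = 0.833 for each, limma). Without control array 1, the lowest of the 5 for both, they were 0.11 for IKBKG and 0.072 for IRAK1. IKBKG has a close pseudogene copy, and signal shared between them was not tested.

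The catalytic subunits of the complex overlapped between groups. CHUK read 6.82, 7.21 and 7.13 in MondoA-labelled arrays, against 7.05 and 6.88 in controls. IKBKB read 6.48, 6.48 and 6.72 in MondoA-labelled arrays, against 6.48 and 6.44 in controls. Of the kinases above the complex, MAP3K7, known as TAK1, read 7.29, 7.53 and 7.33 in MondoA-labelled arrays, against 7.33 and 7.27 in controls. MAP3K14, the kinase that starts the slower branch, read 4.33, 4.33 and 4.40 in MondoA-labelled arrays, against 4.25 and 4.35 in controls.

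MYD88, the adaptor of most Toll-like receptors and the interleukin-1 receptor, came nearest to the unadjusted threshold of all members. Its levels were 6.37, 6.48 and 6.70 in MondoA-labelled arrays, against 6.24 and 6.13 in controls. Every MondoA-labelled array lay above both controls. The groups differed by 0.33 ± 0.12 (SE), or 1.26-fold. The 95% interval ran from -0.01 to 0.68 on the log2 scale (unadjusted p = 0.055, adjusted p = 0.833, limma). Members with a larger unadjusted p, such as TNF at 0.366 (limma), share that adjusted p, so it does not rank them. With 1 array left out the MYD88 difference ran from 0.24 to 0.41.

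For several other adaptors MondoA-labelled array 2 was the highest. TRAF6, the ubiquitin ligase that links MYD88 to MAP3K7, read 5.63, 6.11 and 5.64 in MondoA-labelled arrays, against 5.71 and 5.51 in controls. BIRC2, a ubiquitin ligase that works with TRAF proteins, read 5.86, 6.26 and 5.86 in MondoA-labelled arrays, against 5.86 and 5.67 in controls. The BIRC2 difference was 0.23 ± 0.17 (SE; adjusted p = 0.833, limma), 0.10 without array 2 and 0.13 without control array 2. The TRAF6 difference of 0.19 was 0.03 without MondoA-labelled array 2. TAB2, which ties MAP3K7 to ubiquitin chains, read 7.08, 7.49 and 6.96 in MondoA-labelled arrays, against 7.12 and 7.09 in controls. These groups overlapped for TRAF6, BIRC2 and TAB2 alike.

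BCL10, which relays antigen receptor signals, read 5.43, 5.71 and 5.63 in MondoA-labelled arrays, against 5.66 and 5.63 in controls. TRAF3, a brake on MAP3K14, read 6.19 in all 5 arrays. TRAF1 and TRAF5, signal adaptors of the tumour necrosis factor receptor family, lay below the median gene level in every array. TRAF1 read 3.09, 2.86 and 2.85 in MondoA-labelled arrays and 2.85 in both controls, and TRAF5 read 3.50 in all 3 MondoA-labelled arrays, against 3.50 and 3.38 in controls. No direction can be read from values so close to a tie.

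The restrainers beside TNFAIP3 differed in direction. CYLD, a deubiquitinase that trims the same ubiquitin chains, read 4.71, 4.71 and 4.51 in MondoA-labelled arrays, against 5.10 and 4.71 in controls. The difference of -0.26 ± 0.15 (SE; adjusted p = 0.833, limma) was -0.07 without control array 1, the highest of the 5. TNIP1, a partner of A20, read 5.72, 5.81 and 5.44 in MondoA-labelled arrays and 5.58 in both controls, so the controls lay inside the MondoA-labelled range.

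**Figure D2:**
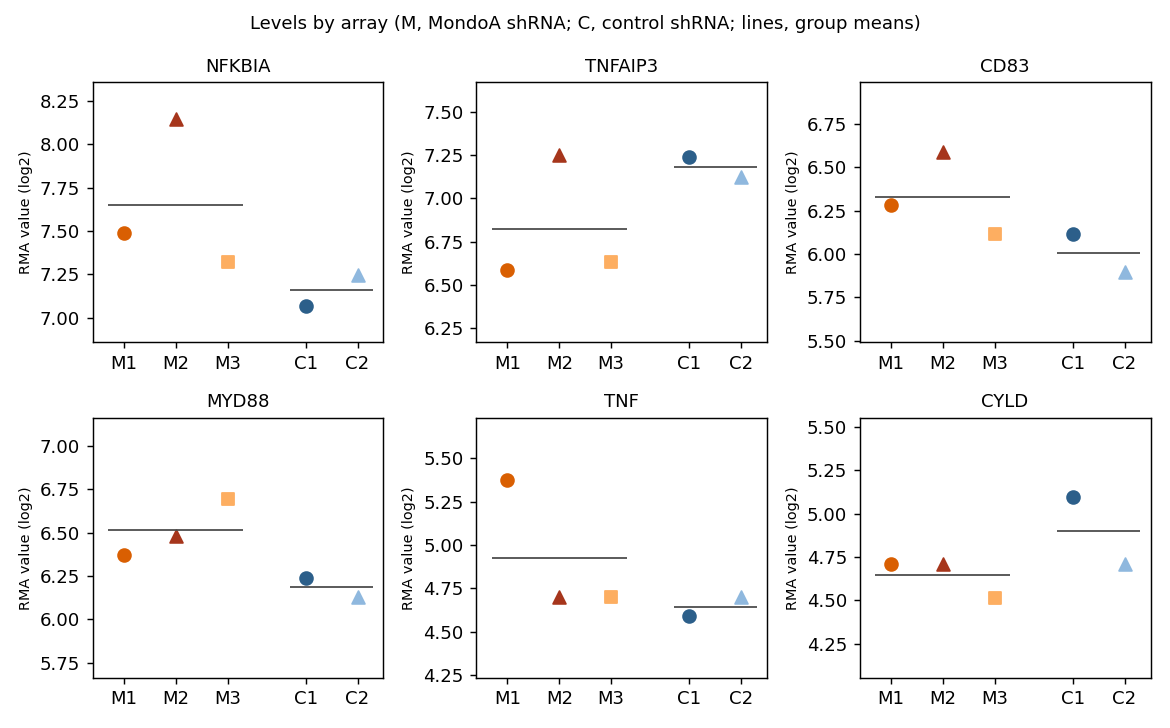
Each panel plots 1 gene, with the RMA level (log2) of each array as a point and the group mean as a line, MondoA shRNA arrays (M1 to M3) left of control shRNA arrays (C1, C2); every panel spans the same height. NFKBIA and MYD88 do not overlap between the groups, while TNF is high in M1 alone and TNFAIP3 is low in M1 and M3.

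The target genes of the output were mostly dim or tied. CD83, a surface protein of activated B and dendritic cells, read 6.28, 6.59 and 6.12 in MondoA-labelled arrays, against 6.12 and 5.90 in controls. MondoA-labelled array 3 and control array 1 had the same value, so the groups met without a gap. Its difference was 0.32 ± 0.18 (SE; adjusted p = 0.833, limma) 0.19 without MondoA-labelled array 2 and 0.21 without control array 2.

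TNF, the cytokine tumour necrosis factor, read 5.38, 4.70 and 4.70 in MondoA-labelled arrays, against 4.59 and 4.70 in controls. Its difference of 0.28 ± 0.27 (SE; adjusted p = 0.833, limma) rested on MondoA-labelled array 1, and was 0.05 without it. LTB, the membrane anchor of lymphotoxin, read 6.13, 5.35 and 5.64 in MondoA-labelled arrays, against 5.64 and 5.63 in controls. Its difference was 0.07 and turned to -0.14 without array 1. LTA, the third cytokine of this cluster on chromosome 6, read 4.48, 4.55 and 4.48 in MondoA-labelled arrays and 4.48 in both controls.

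All 3 TNF probe sets held identical values in every array, as did 3 of 4 LTB probe sets, so they are not separate readings. The remaining, dimmer LTB probe set had a difference of -0.03. The dimmer LTA probe sets had differences of 0.08 and 0.01. At the probe sets used, array 1 was thus high for TNF and LTB and not for LTA, which lies beside TNF.

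The chemokine genes CCL3 and CCL4, secreted by activated B cells, lay below the median gene level in every array. CCL3 read 3.40, 2.98 and 3.14 in MondoA-labelled arrays, against 3.26 and 3.25 in controls. CCL4 read 2.05, 2.04 and 2.05 in MondoA-labelled arrays, against 2.05 and 2.29 in controls. The differences were -0.08 ± 0.14 for CCL3 (SE; adjusted p = 0.898, limma) and -0.13 ± 0.09 for CCL4 (SE; adjusted p = 0.833, limma). That of CCL4 rested on control array 2, and was -0.0031 without it and -0.25 without control array 1. Each has close gene copies, and probe sets naming several copies were left out. The survival genes BCL2A1 and CFLAR, which restrain apoptosis, had equal values in 4 of 5 arrays. BCL2A1 was 2.42 and CFLAR 3.62 in MondoA-labelled array 2, against 2.25 and 3.54 in the others.

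The machinery (subunits, NFKBIB, kinases, adaptors other than TRAF1, and CYLD) had 20 measured genes with a median difference of 0.06, of which 13 were above 0 and 5 below. Feedback and target genes (15 measured) also had a median of 0.06, with 11 above 0 and 3 below. Over all genes the median was 0.00, and over all members 24 of 35 differences were above 0 (68.6%), against 49.1% of all genes. With a mean above 5 it was 14 of 21 members, against 3885 of 7450 genes. Without MondoA-labelled array 2 both class medians shrank, to 0.017 for the machinery and 0.015 for the targets. They moved apart with array weights, to 0.068 for the machinery and 0.014 for the targets. Over the 9 untied members they were 0.15 for the machinery and -0.082 for the targets. The only untied targets were NFKBIA, TNFAIP3 and CCL3, so this target median is the value of the dim gene CCL3.

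Beyond 0.25 in size, 4 members had a positive difference (11.4%) where 3.7% of all genes did, and 2 had a negative one (5.71%) where 4.17% did. Groups did not overlap, with MondoA-labelled arrays higher, for 4 of 35 members (NFKBIA, IKBKG, IRAK1 and MYD88), and the background share was 4.85% of all genes. They were wholly lower for 0 members, where 5.18% of all genes were. Among the 21 members with a mean level above 5, 3 did not overlap on the higher side (14.3%), where 7.74% of such genes did not. On the lower side it was 0 of 21 members, against 690 of 7450 such genes. At that level a difference above 0.25 was seen for 3 of 21 members and 492 of 7450 genes. A difference below -0.25 was seen for 1 of these members and 572 of these genes. These counts rest on few genes that share arrays, and no test was made over them.

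**Figure D3:**
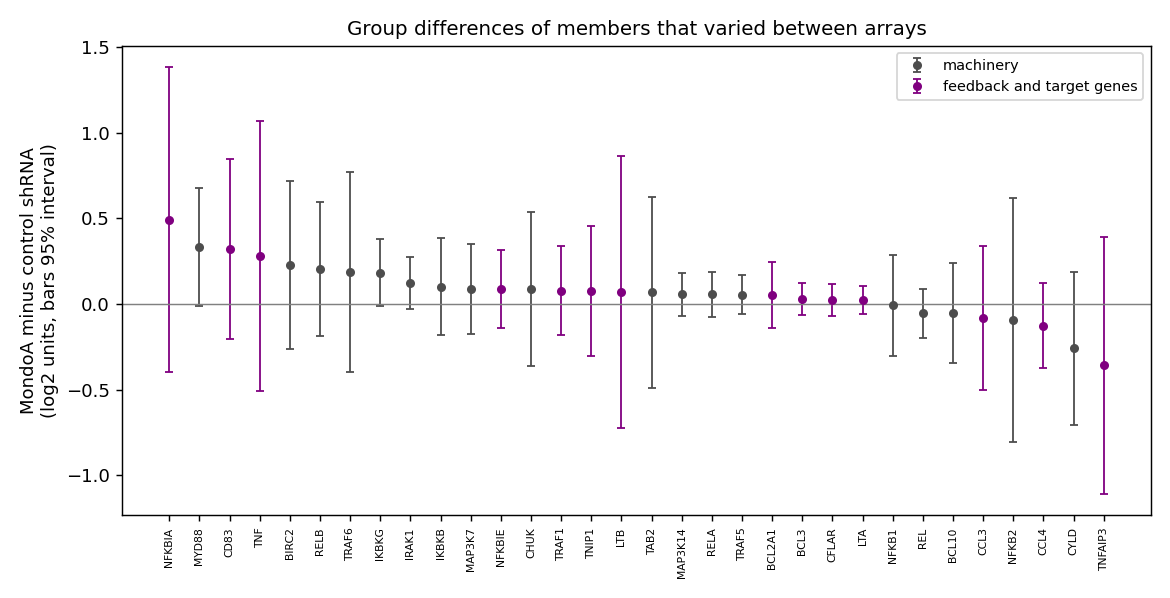
Points show the difference between group means (MondoA shRNA minus control shRNA, log2 units) with its 95% interval from limma for the 32 members that varied between arrays, ordered by size and coloured as machinery or as feedback and target genes. Every interval includes 0, with those of MYD88 and IKBKG closest to excluding it at -0.01.

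The spread between arrays was described by the SD within each group. The median SD of the members was 0.13 among the 3 MondoA-labelled arrays and 0.03 between the control arrays. Over all genes the medians were 0.08 and 0.03, and over genes with a mean above 5 they were 0.13 and 0.05. The median SD of 2 values lies lower than that of 3 with the same spread. Ties also gave a control SD of 0 for members such as NFKB1, NFKB2 and RELA. These medians therefore do not show that the control clones were more alike. Of the 21 members above that level, array 2 was the highest of the 5 arrays for 11 (52.4%), a position it held for 40.1% of such genes. The part of this array-wide shift in the differences of NFKBIA, CD83 and BIRC2 was not tested, and the values without array 2 stand beside each.

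A further list of 74 pathway genes, of which 73 were measured, also gave no adjusted call. The limma fit called 0 at an adjusted p under 0.05 and 1 at an unadjusted p under 0.05 (1.37%, where 3.73% of all genes passed), with 33 differences above 0, 32 below and a median of 0.00. The 1 gene was CXCL8, the neutrophil chemokine, at 3.13, 2.86 and 2.93 in MondoA-labelled arrays, against 2.60 and 2.62 in controls. Its difference was 0.36 ± 0.09 (SE; adjusted p = 0.833, limma), and all 5 levels lay below the median gene level. The groups did not overlap for 8 of the 73 genes, 4 on each side. Each side is 5.48% of the list, near the shares of 4.85% (higher) and 5.18% (lower) over all genes.

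The receptors of the list, from CD40 and the tumour necrosis factor receptors to the Toll-like receptors, had 12 measured genes with differences between -0.16 and 0.15. The other genes whose groups did not overlap were chosen for naming after their values were seen. TRADD, an adaptor of tumour necrosis factor receptor 1, read 5.69, 5.42 and 5.71 in MondoA-labelled arrays, against 5.08 and 5.38 in controls. Its difference of 0.37 was 0.22 without control array 1. ICAM1, an adhesion molecule induced by NF-κB, read 6.29, 6.76 and 6.13 in MondoA-labelled arrays, against 5.82 and 6.05 in controls. The ICAM1 difference of 0.46 was 0.28 without MondoA-labelled array 2. NINJ1 was also wholly higher, by 0.21, and by 0.10 without MondoA-labelled array 1. It read 6.373, 6.045 and 6.045 in MondoA-labelled arrays, against 5.853 and 6.042 in controls, so the groups barely separated.

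On the lower side, the death receptor gene FAS read 5.17, 5.21 and 4.85 in MondoA-labelled arrays, against 5.75 and 5.35 in controls. Its difference of -0.47 was -0.27 without control array 1. MALT1, the protease that acts with BCL10, read 5.39, 5.81 and 5.73 in MondoA-labelled arrays, against 5.92 and 5.84 in controls. MALT1 lies on chromosome 18, where the differences of 110 of 110 genes brighter than 5 were below 0 (median -0.42). The MALT1 difference of -0.24 was smaller than that median, and was -0.11 without MondoA-labelled array 1. CD69 and PTGS2 were also wholly lower, with differences of -0.14 for CD69 and -0.19 for PTGS2. PTGS2 lay below the median gene level in every array. Without control array 1 that of CD69 was -0.095 and without control array 2 that of PTGS2 was -0.12.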

How the data were processed

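RNA of 5 Nalm6 clones was hybridised to Affymetrix whole-transcript arrays after labelling of 200 ng, per the labels. The authors summarised probes with RMA in Affymetrix Expression Console 1.1, per the submitters' processing notes, and deposited 1 log2 value for each of 33297 probe sets. RMA subtracts background, equalises the array distributions and combines probes by median polish. No source used here gives the base of the logarithm, and it was taken as 2. The number of arrays limits the precision, and p-values set a difference against the spread between these clones. The limma fit blends that spread with a prior taken over all genes fitted, of which 54% shared 1 value in at least 3 arrays. This prior counted for 0.56 degrees of freedom in the main fit and 5.15 among genes with 5 different values.

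Symbols came from the platform annotation, with 19460 probe sets naming 1 gene, 1754 several and 12083 none, and 19429 matched a current RefSeq gene (GRCh38.p14). Groups were compared with limma 3.58.1 in R 4.3.3, two-sided, with Benjamini-Hochberg adjustment over 18417 genes and a threshold of 0.05. The step was tested on simulated data. The members, gene lists and tests were chosen with earlier results of these data known.

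Full statistics are given for members at unadjusted p under 0.05 (up to 10) and the 5 largest differences in each direction. From the further pathway list they are given for up to 6 genes in each direction at that threshold. Alternatives left out each array, used the replicate number as a block, normalised again, filtered dim or tied genes, averaged probe sets, weighted arrays, changed the prior or dropped the adjustment. No detection calls, array dates or probe intensities were used here.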

Additional observations from a re-analysis of the deposited data

How the results depend on the processing

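The count of members past the adjusted threshold in limma was 0 in the main fit and in every alternative but 1. The exception was the fit without control array 1, where CCL4 and TRAF5 passed, with differences of -0.25 and 0.11. There the lone control sample is taken to vary as the MondoA-labelled arrays do. Among those arrays the SD was 0.005 for CCL4 and 0 for TRAF5. Both genes lay below the median gene level, so their passing rests on tied or nearly tied dim values. Over all genes the count of 0 became 2 with the arrays quantile normalised again, 60 among genes with 5 different values, 687 at an unadjusted p under 0.05 and 0 to 752 with 1 array left out. For the further pathway genes it became 1 at an unadjusted p and 0 to 3 with 1 array left out. At an unadjusted p under 0.05 the alternatives gave 0 to 3 members, where 3.18% to 12.8% of all genes fitted passed, with MYD88 among them for quantile normalisation, array weights, bright genes, untied genes and without MondoA-labelled array 1.

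The machinery median of 0.064 ran from 0.017 to 0.087 with 1 array left out and was 0.15 over untied genes. The feedback and target median of 0.055 ran from 0.015 to 0.072 with 1 array left out, and was 0.014 with array weights. Over untied genes, where 9 members of both classes remained, it was -0.082, the value of CCL3 alone. Of 110 values for the 10 named members, 3 changed sign. These were NFKB2, at 0.11 without MondoA-labelled array 3 and with the replicate block (-0.23 to 0.11 with 1 array left out), and CCL3, at 0.015 without MondoA-labelled array 2 (-0.19 to 0.015). CCL4 at -0.25 without control array 1 was the only named member to pass the adjusted threshold, and it was -0.0031 without control array 2.

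Titles of both groups share replicate numbers, but nothing links clones of the same number. Deviations from the group means correlated at -0.304 for number 1 and -0.243 for number 2 across genes with a mean above 5. With 2 controls, their deviations from their own mean are exact opposites. Crossed numbers therefore gave 0.304 and 0.243, and these correlations cannot decide whether the clones were paired. MondoA-labelled array 3 has no partner in the replicate block, which therefore gives the differences found without it, and it called 0 members.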

Other observations

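NFKBIA, CD83 and ICAM1 had the same order of arrays, a pattern chosen after the values were seen. In each, MondoA-labelled array 2 was the highest, array 1 came next and array 3 followed, with both controls below array 1. ICAM1 differed by 0.46 (0.28 without array 2) and, like NFKBIA and CD83, is a gene that NF-κB induces. Among the 35 members this order was seen for 3 genes (the third being TNIP1), and among the 73 further pathway genes for 3 (ICAM1, IL1B and IL2RA). Both counts include genes from which the order was taken (NFKBIA, CD83 and ICAM1), so they cannot be weighed against a background share. The order was seen for 1.61% of all genes and 2.28% of genes with a mean above 5. TNFAIP3, also induced by NF-κB, did not follow it, since array 1 read lower than both controls.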
